A study of Homo sapiens with 6 samples.

Results

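Collagen is modified by enzymes inside the cell and crosslinked by enzymes outside it, and the genes of those enzymes are described here in A375 cells, an established human melanoma line, after a short exposure to the cytokine TGFB1. The set is 10 genes, found by Ensembl gene ID among the 58051 rows of the deposited count table: the lysyl oxidase gene LOX and its relatives LOXL1, LOXL2, LOXL3 and LOXL4, the lysyl hydroxylase genes PLOD1, PLOD2 and PLOD3, and the prolyl 4-hydroxylase subunit genes P4HA1 and P4HA2. All A375 cultures were first starved of serum for 2 h. The Vehicle group (3 libraries) was then given 4 mM HCl with 1 mg/mL BSA, and the TGFB1 group (3 libraries) 10 ng/mL of human recombinant TGFB1, in each case for 2 h. The series calls the triplicates technical, so every p-value measures the spread between these libraries and not that between independent experiments.

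The prolyl 4-hydroxylases work in the endoplasmic reticulum, where an alpha subunit (P4HA) and the beta subunit P4HB convert proline to hydroxyproline, which stabilises the collagen triple helix. The PLOD enzymes hydroxylate lysines in the same compartment, and PLOD2 is known for the hydroxylation of the telopeptides, the ends of the chains from which crosslinks start. The LOX enzymes are copper-dependent amine oxidases that act mainly outside the cell, turning lysine and hydroxylysine into the aldehydes that join collagen and elastin chains. TGF-beta is widely known as an inducer of matrix genes, LOX and PLOD2 among them, in fibroblasts, and LOX, PLOD2, P4HA1 and P4HA2 are known targets of the hypoxia-inducible factors (HIF).

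The libraries held 24713894 to 34895075 counts, and none was a copy of another: the variance between pairs of the same group was 5.07 to 25.6 times that of counting alone. Vehicle replicate 1 was the shallowest, and it lay farthest out on the first principal component (-37.1, against -13.4 and -8.25 for Vehicle replicates 2 and 3 and 17.7 to 20.7 with TGFB1). Of 6 textbook TGF-beta response genes, 6 rose, where 2.43% of all tested genes did. That list was chosen with earlier results of these data known, so its count is a description and not a test. SMAD7, which encodes an inhibitor of the pathway, went from 7.80, 8.83 and 11.2 CPM (counts scaled to the library size, with TMM factors) in Vehicle replicates 1, 2 and 3 to 63.6, 57.1 and 62.5 CPM with TGFB1. Of 12 melanocytic melanoma markers, SOX10 had 0 counts in all 6 libraries and 5 in all were under 1 CPM, while CSPG4 and MCAM stood above 200 CPM, and the summed level was 627 to 642 CPM in Vehicle and 611 to 626 CPM with TGFB1. MITF was the single called marker of that list and fell by 0.23 on the log2 scale (edgeR adjusted p = 0.0355), a call that did not hold without Vehicle replicate 1 (0.107) or 2 (0.229) or TGFB1 replicate 1 (0.208) or 3 (0.205), with limma-voom (0.0537) or with no low-count filter (0.0854). Summed fibroblast markers (8 genes) were 20.9 to 24.7 CPM in Vehicle and 20.2 to 20.5 CPM with TGFB1, leukocyte markers (6) 6.22 to 7.78 and 5.71 to 6.69 CPM, endothelial markers (5) 13.4 to 19.0 and 15.5 to 16.8 CPM, and epithelial markers (6) 228 to 237 and 222 to 240.02 CPM. The fibroblast markers COL3A1, THY1 and TCF21, the leukocyte gene PTPRC, the endothelial CDH5 and the epithelial EPCAM and CDH1 each averaged under 1 CPM. Other fibroblast markers were higher. Means in Vehicle and TGFB1 were 5.23 and 5.10 CPM for PDGFRB, 3.26 and 2.40 for PDGFRA, 2.12 and 1.78 for DCN and 1.98 and 3.19 for FAP. The same lists also held KRT18 at means of 203 and 201 CPM in Vehicle and TGFB1, KRT14 at 14.5 and 16.4, KRT8 at 12.8 to 16.8 CPM over the 6 libraries, KDR at 15.6 and 14.7, LUM at 9.69 and 7.75 and LYZ at 6.62 and 6.05 CPM. Tested were 5 fibroblast, 1 leukocyte, 3 endothelial and 3 epithelial markers. Of these, 0 were called, where 3.31% of all tested genes were, and so few genes say little. The part of these 4 lists in the results was not tested.

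The sequences before 4 of the gene starts are shown, and whether they bear on the response was not tested. They are those of LOX, PLOD2 and P4HA1, the HIF targets named above whose windows held a hypoxia core, and that of PLOD3. PLOD3 was the gene of the set nearest the threshold of the test. Each line holds the 250 bases before the most upstream start that RefSeq lists (GRCh38.p14), 5′ to 3′ on the strand of the gene. Capitals mark matches on either strand to CAGAC, the core of the SMAD-binding element (reverse complement GTCTG), and to ACGTG or GCGTG, the cores of the hypoxia response element (reverse complements CACGT and CACGC).
LOX (chr5:122078260-122078509, minus strand): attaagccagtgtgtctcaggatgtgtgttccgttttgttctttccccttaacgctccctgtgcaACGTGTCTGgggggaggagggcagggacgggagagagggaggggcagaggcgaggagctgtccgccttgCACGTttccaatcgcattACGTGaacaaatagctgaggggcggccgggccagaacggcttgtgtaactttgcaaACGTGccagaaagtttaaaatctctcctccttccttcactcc
PLOD2 (chr3:146161185-146161434, minus strand): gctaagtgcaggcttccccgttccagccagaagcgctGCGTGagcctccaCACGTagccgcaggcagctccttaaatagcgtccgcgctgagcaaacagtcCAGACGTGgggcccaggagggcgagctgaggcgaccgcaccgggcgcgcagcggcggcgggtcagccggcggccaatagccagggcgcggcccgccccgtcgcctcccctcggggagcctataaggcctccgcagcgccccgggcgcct
P4HA1 (chr10:73096867-73097116, minus strand): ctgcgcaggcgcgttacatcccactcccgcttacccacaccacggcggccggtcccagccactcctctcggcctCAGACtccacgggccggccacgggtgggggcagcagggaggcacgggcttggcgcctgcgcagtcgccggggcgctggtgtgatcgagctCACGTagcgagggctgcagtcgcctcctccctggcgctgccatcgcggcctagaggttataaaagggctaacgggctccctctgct
PLOD3 (chr7:101217582-101217831, minus strand): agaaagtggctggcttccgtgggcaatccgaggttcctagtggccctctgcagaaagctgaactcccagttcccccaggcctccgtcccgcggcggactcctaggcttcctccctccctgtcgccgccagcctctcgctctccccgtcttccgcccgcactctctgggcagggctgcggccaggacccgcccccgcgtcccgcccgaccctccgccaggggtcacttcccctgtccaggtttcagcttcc

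The LOX window held 4 hypoxia cores, beginning 185, 116, 98 and 42 bases before the start, and 1 SMAD core, which shares a base with the farthest of them. The PLOD2 window held 3 hypoxia cores and 1 SMAD core; the core beginning 146 bases before the start overlaps the SMAD core in the run CAGACGTG. P4HA1 had 1 match of each kind, and the PLOD3 window had 0 matches. Of the windows not shown, that of the HIF target P4HA2 held 0 hypoxia cores and 1 SMAD core, and that of PLOD1 held 2 hypoxia cores. RefSeq windows were read for 9 of the 10 genes. No window was read for LOXL2, which lies on chromosome 8. The windows of all promoters, used for comparison below, were not limited by chromosome. In the most upstream window of each gene read, 4 of the 9 held a hypoxia core and 5 of the 9 a SMAD core, against 43.2% and 38.0% of 35116 promoter windows of the same length. The 35116 windows count every listed start, so the units differ where a gene has more than 1. A further LOXL3 window, not counted among the 9, held 1 hypoxia core. The AP-1 site TGACTCA (reverse complement TGAGTCA) was in 0 of the 9 and in 4.20% of all windows, and the SMAD palindrome GTCTAGAC in 0 of the 9 and in 0.182%. These matches describe letters, not binding.

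After 2 h of TGFB1, 0 of the 9 tested enzyme genes passed the threshold (adjusted p under 0.05, edgeR quasi-likelihood test with Benjamini-Hochberg adjustment over 16690 genes), where 3.31% of all tested genes did (2.43% higher and 0.887% lower). DESeq2 and limma-voom also called 0, and at an unadjusted p under 0.05 there was 1, PLOD3, against 12.3% of all genes. LOXL1 was too low to be tested. The median log2 fold change of the 9 genes was -0.05, beside -0.0067 over all tested genes, and 7 of the 9 were negative, beside 52% of all. The median size of the change was 0.08 among the 9 and 0.10 among all genes. For 8 of the 9, the 95% interval of the change lay inside 1.3-fold in both directions, so a larger change of these transcripts lies outside those intervals; the exception was LOX. In bulk RNA, a change in the number of cells that express a gene and a change in RNA per cell cannot be told apart.

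**Figure D1:**
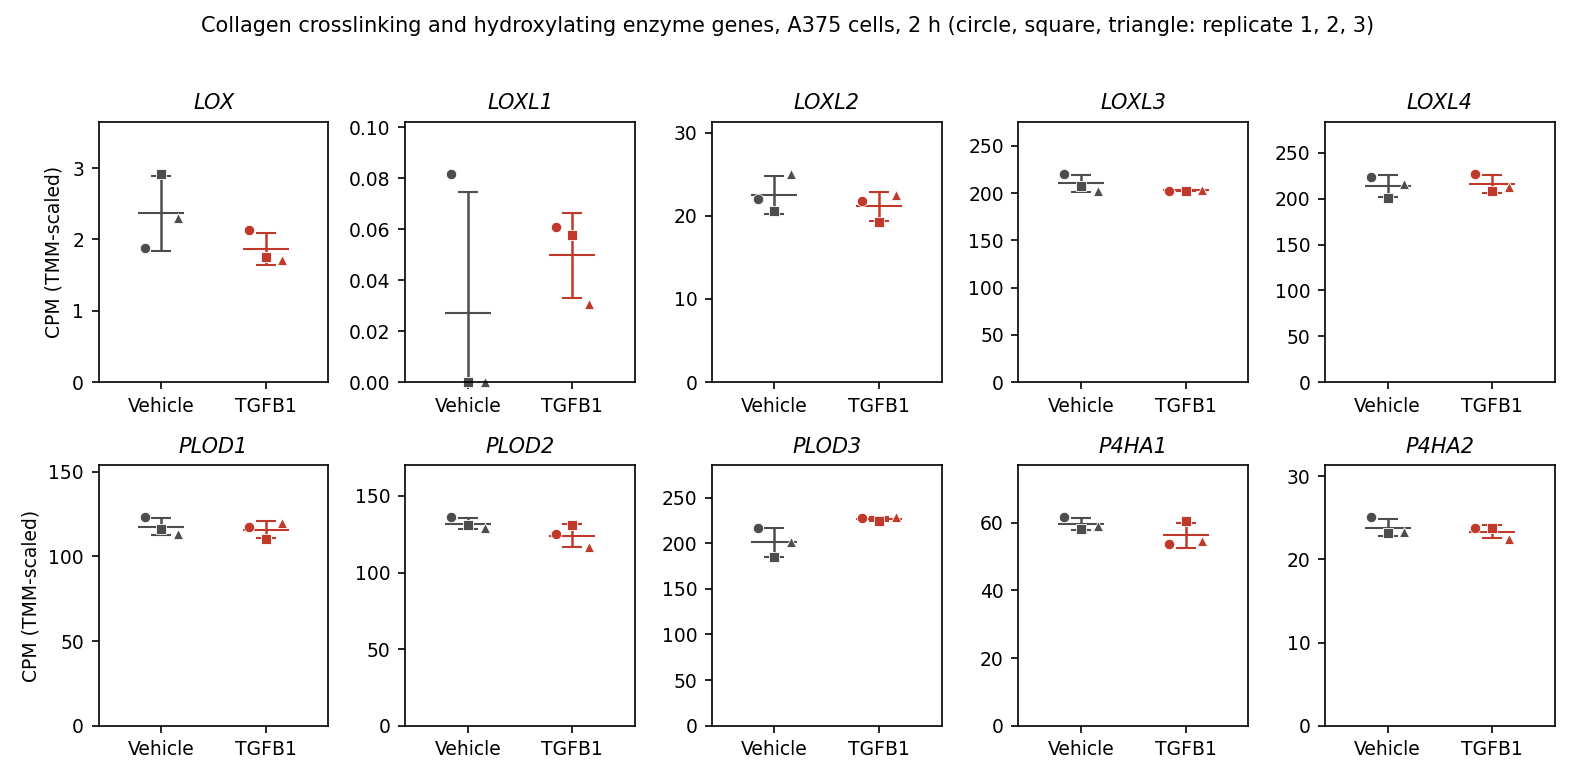
Level of each of the 10 enzyme genes (vertical axis, TMM-scaled CPM from 0, a separate scale in each panel) in the 3 Vehicle and 3 TGFB1 libraries. Points are libraries, the wide bar is the mean and the whiskers are 1 SD; the groups are apart in the PLOD3 panel alone.

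**Figure D2:**
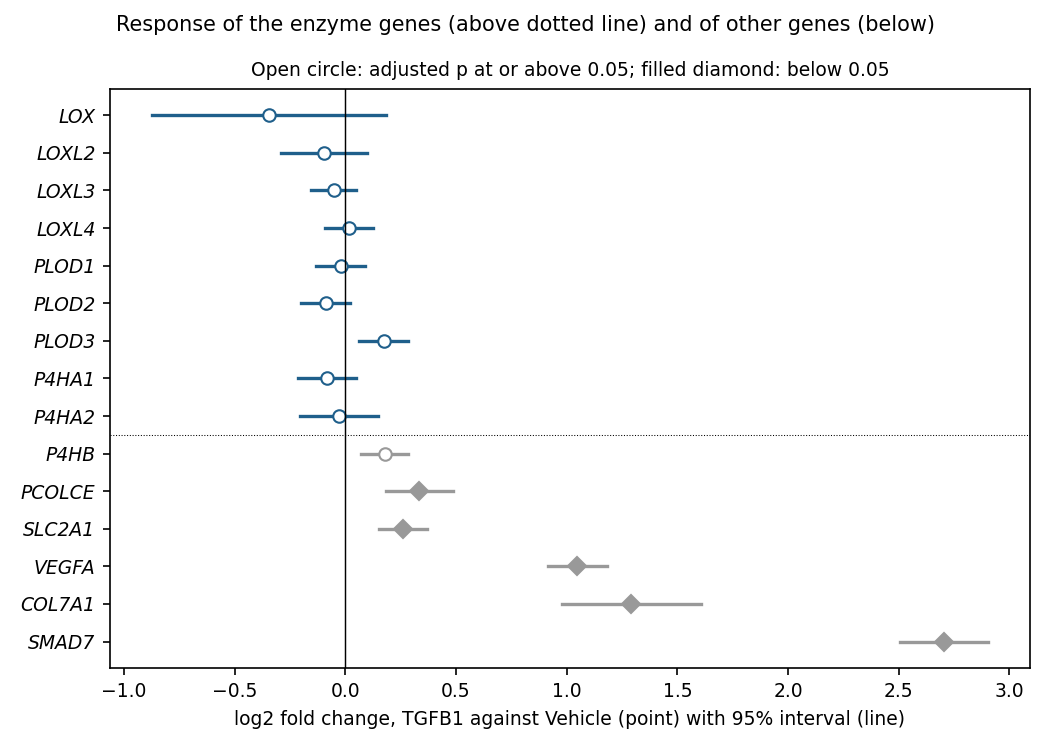
log2 fold change of TGFB1 against Vehicle (horizontal axis) with its 95% interval, for the 9 tested enzyme genes and, below the dotted line, for P4HB, PCOLCE, SLC2A1, VEGFA, COL7A1 and SMAD7. The enzyme genes lie between -0.35 and 0.17, and SMAD7 lies at 2.70.

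Among the lysyl oxidases, LOX (ENSG00000113083, chromosome 5 at 122063195 to 122078360 on GRCh38), the founding member, was barely expressed. It was read at 1.88, 2.92 and 2.30 CPM in Vehicle replicates 1, 2 and 3 and at 2.13, 1.76 and 1.72 CPM in TGFB1 replicates 1, 2 and 3. These rest on 46 to 89 counts per library. The highest value was in Vehicle replicate 2, and the groups overlapped. The log2 fold change was -0.35 ± 0.26 (SE; adjusted p = 0.664), with a 95% interval from 0.546-fold to 1.14-fold. The interval is the widest of the 9 genes. Without Vehicle replicate 2 the value was -0.17, and no alternative gave an adjusted p below 0.558.

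LOXL1 (ENSG00000129038, chromosome 15 at 73925989 to 73952137), which is known for elastic fibre maintenance, had 2, 0 and 0 counts in Vehicle and 2, 2 and 1 with TGFB1. All 6 values are below the 3 counts that a reading of 0 allows, so no fold is given. LOXL2 (ENSG00000134013, chromosome 8), which acts on type IV collagen of basement membranes, stood at 21.98, 20.6 and 25.1 CPM in Vehicle and at 21.7, 19.2 and 22.5 CPM with TGFB1. Its lowest and highest libraries were TGFB1 replicate 2 and Vehicle replicate 3, and the groups overlapped. Its log2 fold change was -0.09 ± 0.10 (SE; adjusted p = 0.777).

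LOXL3 and LOXL4 were the abundant lysyl oxidases of these cells. LOXL3 (ENSG00000115318, chromosome 2 at 74532414 to 74555690) was at 221, 208 and 203 CPM in Vehicle and at 202, 203 and 204 CPM with TGFB1. LOXL4 (ENSG00000138131, chromosome 10 at 98247690 to 98268250) was at 224, 201 and 216 CPM in Vehicle and at 227, 209 and 212 CPM with TGFB1. The groups overlapped in both genes, with the TGFB1 libraries at the low end of the Vehicle range for LOXL3. The log2 fold change of LOXL3 was -0.05 ± 0.05 (SE; adjusted p = 0.764), and its 95% interval ran from 0.899-fold to 1.03-fold. That of LOXL4 was 0.02 ± 0.05 (SE; adjusted p = 0.95), with an interval from 0.940-fold to 1.09-fold. LOXL3 shares 14.3% of its exonic bases with HTRA2 and 4.95% with DOK1, both on the opposite strand. The strand setting of the counting is not given in the sources used here, so reads of those parts cannot be assigned with certainty.

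The lysyl hydroxylase PLOD3 came closest to a response. PLOD3 (ENSG00000106397, chromosome 7 at 101205977 to 101218420), which also transfers glucose to hydroxylysine-linked galactose, was at 217, 185 and 201 CPM in Vehicle replicates 1, 2 and 3 and at 227, 224 and 228 CPM in TGFB1 replicates 1, 2 and 3. All 3 TGFB1 libraries lay above the highest Vehicle library. It was the single gene of the 9 whose groups did not overlap, which was the case for 16.5% of all tested genes. The spread was uneven, at 201 ± 16.2 CPM (SD, n = 3) in Vehicle and 227 ± 2.25 CPM (SD, n = 3) with TGFB1. The log2 fold change was 0.17 ± 0.05 (SE; 95% interval 0.06 to 0.28), and the adjusted p of edgeR's test was 0.0742. Of all tested genes, 3.71% had a smaller p. Without Vehicle replicate 1, the library that stands apart, PLOD3 passed (log2 fold change 0.23, adjusted p = 0.0080), while without Vehicle replicate 2, its lowest value, the log2 fold change was 0.12 and the adjusted p was 0.462; these are the ends of the range over all alternatives. For ZNHIT1, which covers 7.56% of the exonic bases of PLOD3 from the opposite strand, the log2 fold change was 0.0020 ± 0.05 (SE; adjusted p = 0.996).

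PLOD1 and PLOD2 showed no such separation. PLOD1 (ENSG00000083444, chromosome 1 at 11934205 to 11975538), whose loss causes kyphoscoliotic Ehlers-Danlos syndrome, was at 123, 116 and 113 CPM in Vehicle and at 118, 110.3 and 119.8 CPM with TGFB1. PLOD2 (ENSG00000152952, chromosome 3 at 146069440 to 146163653), the telopeptide lysyl hydroxylase, was at 136, 131 and 129 CPM in Vehicle and at 125, 131 and 116 CPM with TGFB1. TGFB1 replicates 1 and 3 were below every Vehicle library for PLOD2, and replicate 2 was among them. The log2 fold changes were -0.02 ± 0.05 (SE; adjusted p = 0.939) for PLOD1 and -0.09 ± 0.05 (SE; adjusted p = 0.563) for PLOD2. For PLOD2, whose window with 3 hypoxia cores and 1 SMAD core is shown above, the 95% interval ran from 0.871-fold to 1.02-fold.

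The prolyl 4-hydroxylase alpha subunits gave small changes as well. P4HA1 (ENSG00000122884, chromosome 10 at 73007217 to 73096974), the main alpha subunit in most cells, was at 61.6, 58.3 and 58.95 CPM in Vehicle and at 53.7, 60.5 and 54.6 CPM with TGFB1. P4HA2 (ENSG00000072682, chromosome 5 at 132191838 to 132295315), the alternative subunit, was at 25.04, 23.2 and 23.2 CPM in Vehicle and at 23.8, 23.7 and 22.4 CPM with TGFB1. TGFB1 replicates 1 and 3 lay below all Vehicle values for P4HA1, replicate 2 did not, and the P4HA2 groups overlapped. The log2 fold changes were -0.08 ± 0.06 (SE; adjusted p = 0.683) and -0.03 ± 0.09 (SE; adjusted p = 0.947). Their 95% intervals ran from 0.862-fold to 1.03-fold for P4HA1 and from 0.867-fold to 1.11-fold for P4HA2.

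Levels of different genes were compared per length, as CPM per kb of the union of exons in GENCODE 29. LOXL4 led with 58.8 CPM per kb over the 6 libraries, followed by LOXL3 at 47.4, PLOD3 at 37.7, PLOD1 at 21.9, P4HA1 at 18.7, PLOD2 at 16.8, LOXL2 at 3.83, P4HA2 at 2.77, LOX at 0.382 and LOXL1 at 0.0106. Each gene was above the next in every library, and the ranges over the libraries were apart for every neighbouring pair but P4HA1 (17.4 to 19.9) and PLOD2 (15.2 to 17.8). LOXL4 and LOXL3 were higher per kb than 95.5% and 94.2% of all tested genes, and LOX than 17.8%. With the longest transcript as the length, PLOD3 led at 73.2, with LOXL3 at 59.0 and LOXL4 at 58.8 CPM per kb, while PLOD2 (33.4) passed P4HA1 (20.4) and P4HA2 (7.04) passed LOXL2 (6.16). The order among neighbours therefore depends on which length is used; PLOD1 stayed between PLOD2 and the upper 3, and LOX and LOXL1 stayed the last in the order.

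**Figure D3:**
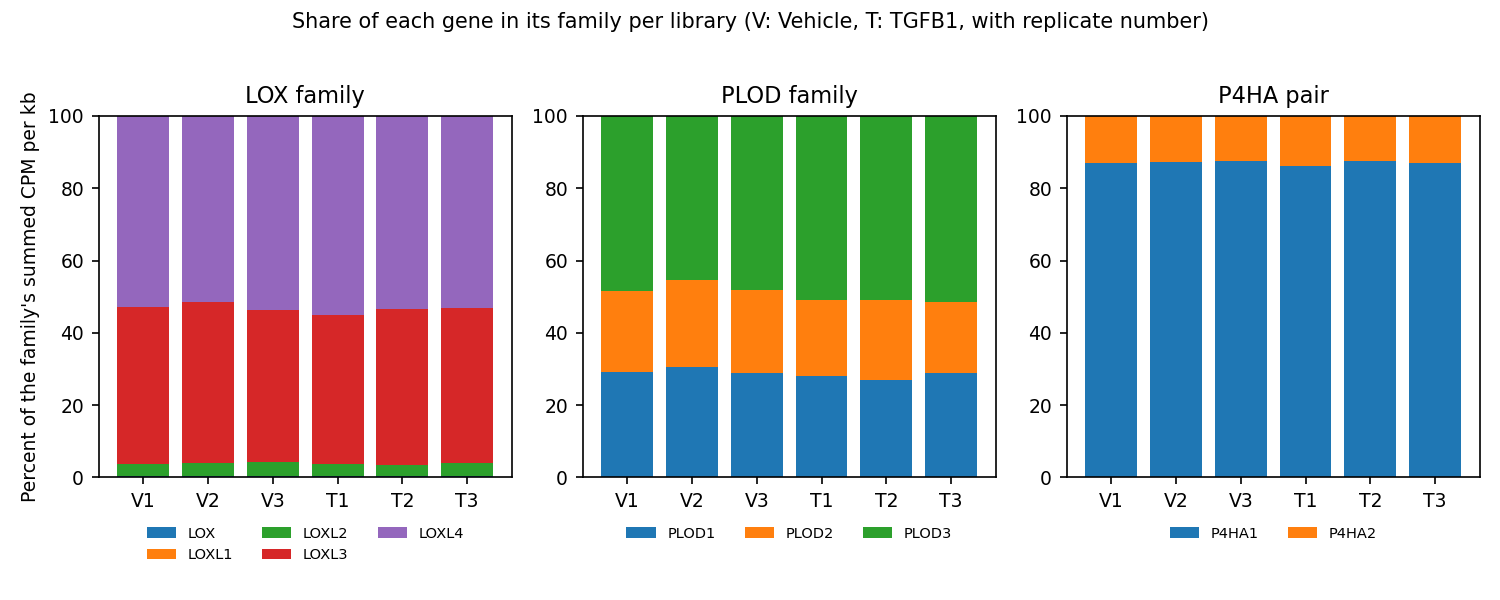
Share of each gene in the summed CPM per kb of its enzyme family (vertical axis, percent) in each Vehicle (V) and TGFB1 (T) library. LOXL3 and LOXL4 fill most of the LOX family bars, where LOX and LOXL1 are too small to see, and PLOD3 takes 45.5% to 51.6% of the PLOD bars.

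Within the LOX family and the P4HA pair, the mean shares of the groups lay within 1.3 percentage points of each other. LOXL4 made up 52.6% ± 1.05 (SD, n = 3) of the LOX family in Vehicle and 53.9% ± 1.08 (SD, n = 3) with TGFB1, and LOXL3 made up 43.4% ± 1.28 and 42.4% ± 1.13. P4HA1 made up 87.3% ± 0.175 of the alpha subunit pair in Vehicle and 86.9% ± 0.707 with TGFB1 (SD, n = 3 each). With the longest transcript as the length, the Vehicle shares were 46.6% for LOXL4 and 47.9% for LOXL3, which then led the family, and 74.7% for P4HA1 and 25.3% for P4HA2. The PLOD family differed most. PLOD3 took 48.3%, 45.5% and 48.2% in Vehicle and 51.1%, 51.0% and 51.6% with TGFB1, while PLOD2 took 23.1% ± 0.749 and 20.8% ± 1.32 and PLOD1 29.6% ± 0.884 and 27.9% ± 1.05 (SD, n = 3 each). For each of the 3 PLOD genes the groups did not overlap, and the two-sided exact permutation test gave p = 0.1, the smallest that 3 against 3 libraries allow (adjusted p = 0.333 over the 10 shares compared). The shares of a family sum to a fixed total, so these 3 are not separate results.

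Of 25 tested other genes of collagen processing, 1 rose and 0 fell, where 2.43% of all tested genes rose and 0.887% fell. The median log2 fold change was 0.05. PCOLCE, which encodes an enhancer of the protease that removes the procollagen C-propeptide, rose from 41.0, 46.3 and 51.3 CPM in Vehicle to 63.1, 55.7 and 56.6 CPM with TGFB1. The groups did not overlap, and the log2 fold change was 0.34 ± 0.07 (SE; adjusted p = 0.00433). That call was lost without TGFB1 replicate 1 (adjusted p = 0.0925, against 5.08e-05 to 0.0445 under the other alternatives), and PCOLCE-AS1 covers 16.6% of its exonic bases from the opposite strand. P4HB, the beta subunit that pairs with P4HA1 and P4HA2 and also serves as protein disulfide isomerase, was at 263, 281 and 309 CPM in Vehicle and at 320, 313 and 333 CPM with TGFB1. Its groups did not overlap either, and its log2 fold change was 0.18 ± 0.05 (SE), with an adjusted p = 0.0582, short of the threshold like PLOD3. P4HB passed without Vehicle replicate 3 (0.00127), with no low-count filter (0.0351) and with DESeq2 (0.0433), and its adjusted p reached 0.329 without TGFB1 replicate 3. The other 3 of the 4 most abundant genes per kb were the cyclophilin gene PPIB, CRTAP of the prolyl 3-hydroxylation complex and the foldase gene FKBP10. Their log2 fold changes were 0.05, -0.01 and 0.01 (adjusted p = 0.797, 0.963 and 0.96). From the opposite strand, SNX22 covers 27.2% of the exonic bases of PPIB, and ENSG00000262831 covers 9.98% of those of P4HB. TLL1, singled out after its value was seen, had the largest change of the list, 1.67 ± 0.69 (SE; adjusted p = 0.264), with means of 0.172 CPM in Vehicle and of 0.526 CPM under TGFB1.

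Of the proteins these enzymes act on or beside, 20 genes of collagens and elastic fibres were listed and 16 were tested. Of these, 1 rose and 0 fell, where 2.43% of all tested genes rose and 0.887% fell. The median log2 fold change was 0.02. COL7A1, the anchoring fibril collagen, was the riser, from 3.39, 3.61 and 3.41 CPM to 8.70, 8.60 and 8.25 CPM (log2 fold change 1.29 ± 0.15, SE; adjusted p = 2.27e-07). COL1A1, COL1A2, COL3A1 and ELN, the classical fibrillar and elastic substrates, averaged under 1 CPM and were not tested. The substrates with the most reads, not scaled by length, were COL4A2 at 348 and 350.0 CPM, COL5A2 at 286 and 276 CPM and COL4A1 at 209 and 214 CPM (means in Vehicle and TGFB1). They are named after their values were seen, and none of them passed (adjusted p = 0.984, 0.775 and 0.849). For FN1, also named after its value was seen, the log2 fold change was 0.28 ± 0.08 (SE; adjusted p = 0.109), and it passed with DESeq2 (0.00927), limma-voom (0.02) and no low-count filter (3.38e-05). It also passed without Vehicle replicate 2 (0.0418) or TGFB1 replicate 2 (0.0102). COL6A1, likewise named after its value was seen, was nearer the threshold (log2 fold change 0.18 ± 0.06, SE; edgeR adjusted p = 0.0916). It passed without Vehicle replicate 3 (0.00835).

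The HIF target list was read beside the enzymes because LOX, PLOD2, P4HA1 and P4HA2 are known targets of the same factors. Of its 20 tested genes, 6 rose and 0 fell, where 2.43% of all tested genes rose and 0.887% fell. The median log2 fold change was 0.06, and most of the list did not pass. The list was chosen with earlier results of these data known. The risers were ANGPTL4 (3.41), BHLHE40 (3.29), the angiogenic factor gene VEGFA (1.05), the glycolytic regulators PFKFB4 (0.83) and PFKFB3 (0.80) and the glucose transporter gene SLC2A1 (0.26), all as log2 fold changes. VEGFA went from 47.5, 45.8 and 53.4 CPM in Vehicle to 105.04, 92.9 and 105.9 CPM with TGFB1. For SLC2A1 the call did not hold without Vehicle replicate 2 (adjusted p = 0.0527) or TGFB1 replicate 3 (0.0531). Over the 20 genes, 12 log2 fold changes were positive and 8 negative. Some uncalled genes are named after their values were seen. ADM (0.17), NDRG1 (0.12) and LDHA (0.08) were positive, and ALDOC (-0.17), BNIP3L (-0.15), PDK1 (-0.13) and BNIP3 (-0.10) negative. CA9 (-0.35 ± 0.38, SE) and EGLN3 (0.09 ± 0.45, SE) had few reads. Their means in Vehicle and TGFB1 were 1.21 and 0.952 CPM for CA9, and 0.815 and 0.889 CPM for EGLN3. For the enzyme genes LOX, PLOD2, P4HA1 and P4HA2 the values were -0.35, -0.09, -0.08 and -0.03. Whether the 4 enzyme genes differ from the risers of this list was not tested.

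**Figure D4:**
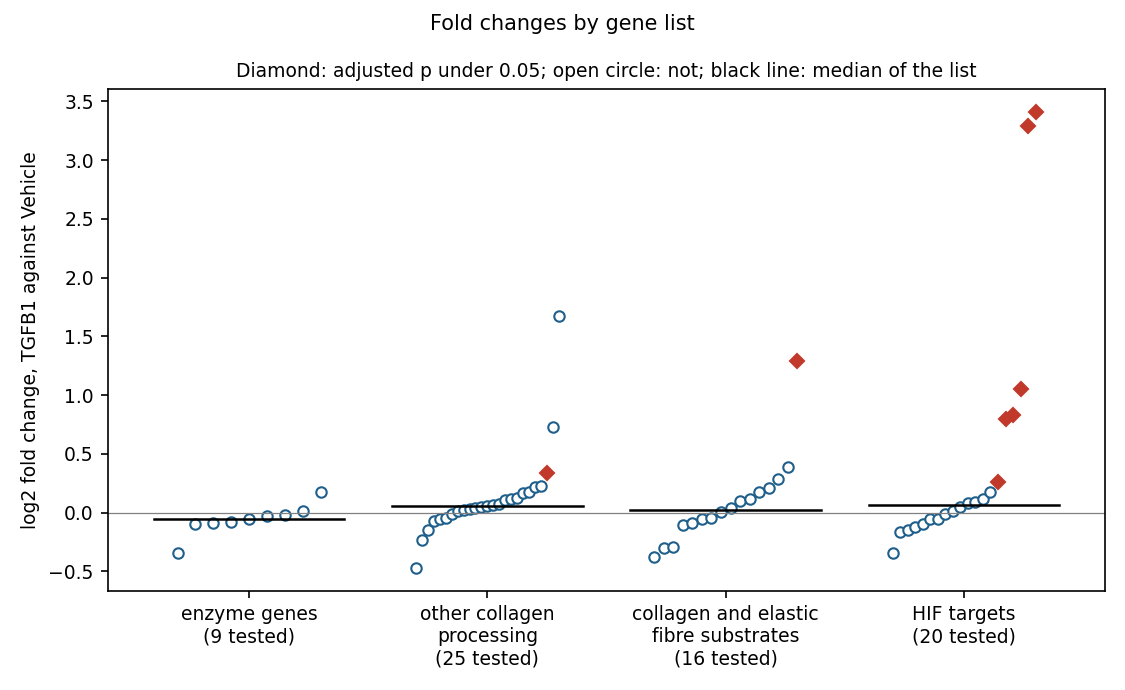
log2 fold change of TGFB1 against Vehicle (vertical axis) for every tested gene of 4 lists, ordered within each list. Diamonds mark an adjusted p under 0.05 and black lines the medians: 0 of 9 enzyme genes, 1 of 25 other processing genes, 1 of 16 substrate genes and 6 of 20 HIF targets are marked.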

How the data were processed

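The authors deposited raw read counts per Ensembl gene ID; cutadapt, TopHat2 2.1, HTSeq and the GRCh38 build are named per the submitters' processing notes. For the annotation release, counting mode and strand setting, the sources used here give nothing. The labels name polyA RNA, while the protocol describes ribosomal RNA depletion. Symbols, coordinates and exon lengths come from GENCODE 29 by gene ID (57447 of 58051 rows matched), and promoter sequences from RefSeq (GRCh38.p14).

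Genes passing filterByExpr (minimum count 10, minimum total 15), 16690 in all, were scaled by TMM and tested with edgeR's quasi-likelihood F-test (edgeR 4.0.16, R 4.3.3; group as the sole term), with Benjamini-Hochberg adjustment over all of them and a threshold of 0.05. The SE is the log2 fold change divided by the square root of F. CPM values are TMM-scaled. Alternatives were other scalings, 2 other filters, DESeq2 1.42.0, limma-voom (limma 3.58.1), a replicate block, a threshold of 0.01 and each library left out.

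The 10 genes and all lists were chosen with earlier results of these data known. Named are the 10 genes, up to 6 called genes per list, the 4 most abundant other processing genes per kb, and the 3 genes most like the member of smallest p; MITF was added after its value was seen.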

Additional observations from a re-analysis of the deposited data

How the results depend on the processing

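The 9 tested enzyme genes under 15 alternatives gave 135 log2 fold changes. Of these, 128 kept their direction and their side of the threshold, 2 (both of PLOD3) moved past it and 5 changed sign. The alternative with a threshold of 0.01 reuses the main fit, so its values could only count as kept. The sign changes were in genes near 0 when libraries were left out: LOXL4 ranged from -0.024 to 0.055, PLOD1 from -0.047 to 0.016 and P4HA2 from -0.047 to 0.0079. CRTAP (-0.029 to 0.0033) and FKBP10 (-0.0087 to 0.042, and -0.00047 with upper-quartile scaling) did the same. Leaving out single libraries gave 365 (without TGFB1 replicate 1) to 923 (without Vehicle replicate 3) called genes against 553, 0 to 1 enzyme genes, 0 to 2 other processing genes and 1 to 2 substrate genes, and the cause was not tested. Other processing genes called numbered 2, against 1, with no low-count filter, DESeq2 and the replicate block, and substrate genes called numbered 2 with no low-count filter, DESeq2 and limma-voom. The replicate block called 601 genes and 1 enzyme gene, PLOD3 (log2 fold change 0.18, adjusted p = 0.0382), and P4HB passed with it (0.0186). Same-numbered libraries did not deviate together (correlations -0.03, 0.04 and 0.0076), and not every library correlated best with its own number, so they share only a number. The differences between the groups in the shares of family totals moved by less than 1 SD between replicates under the other length and without each library, although the shares themselves depend on the length used. Depth limits LOX and LOXL1: LOX rests on fewer than 100 counts per library, and LOXL1 lies below the level at which any change can be read.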

Other observations

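The 3 genes whose log2 CPM followed PLOD3 most closely over the 6 libraries, among 13550 genes compared, were CDC42EP2, which encodes an effector of the GTPase CDC42 (Pearson r = 0.998), UBE2S, a ubiquitin-conjugating enzyme gene of the anaphase-promoting complex (0.997), and ARFGAP1, a regulator of Golgi transport (0.995). The points are libraries that share their group, and each of these genes, like PLOD3, was lowest in Vehicle replicate 2. Their log2 fold changes were 0.36, 0.13 and 0.08 (edgeR adjusted p = 0.0977, 0.221 and 0.658), so none passed.

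Antisense genes at these loci had few reads. The most abundant, ENSG00000230928 at LOXL4, had 40, 57 and 36 counts in Vehicle and 26, 43 and 24 with TGFB1 (log2 fold change -0.70 ± 0.36, SE; edgeR adjusted p = 0.44). LOXL2-AS1 had 10, 11 and 3 counts in Vehicle and 21, 12 and 22 with TGFB1, and LOXL1-AS1 had 0, 3 and 8 against 9, 3 and 7. P4HA2-AS1 had 1 count over all 6 libraries. Among protein-coding neighbours that share exonic bases with an enzyme gene, SRFBP1 beside LOX had means of 51.2 CPM in Vehicle and 51.03 CPM with TGFB1, and ENTPD4 beside LOXL2 had 46.9 and 47.8 CPM.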
